A study of Mus musculus with 4 samples.

Results

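The genes described here are 48 genes that copy DNA or carry out cell division, 26 of S phase and 22 of mitosis, out of 21631 coding genes in the gene table. They were picked by function from a list and not by any measured value, though with earlier results of these data known. Chromatin accessibility at them was read from ATAC-Seq, in which a transposase cuts open DNA and stretches with many cuts are called as peaks. The libraries came from long-term hematopoietic stem cells (LT-HSCs, the label's term) sorted from bone marrow and then cryopreserved. There were 2 control libraries, labelled WT and described in the study's methods as Cpt1a fl/fl mice, and 2 KO libraries from mice that also carried Vav1-Cre, which removes the carnitine palmitoyltransferase gene Cpt1a across the blood lineage. All mice were on a C57BL/6 CD45.2 background and were untreated, the methods describe adults of both sexes, and neither the number of mice per library nor whether cells were pooled is given in the sources used here. The study's text calls the same cells HSPCs. Peaks were called on each library separately. Merging the 4 lists at 1 bp of overlap gave 337776 regions, of which 318 overlapped a member gene or the 1000 bp on either side of it.

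The libraries held 240940 to 277594 summits, and their read depth is unknown because the lists hold no counts. The median interval was 179 and 183 bp in the controls against 140 and 157 bp in the KO pair. All 9 stem cell marker genes with a listed start had a promoter peak in every library, whereas the T cell, B cell, myeloid, erythroid, liver and glial genes Cd3e, Cd3d, Cd8a, Ebf1, Ly6g, Klf1, Alas2, Alb, Apoa1 and Gfap had none in any. Of the other marker lists, 1 or 2 of 5 T cell, 2 of 3 B cell, 5 or 6 of 7 neutrophil and monocyte, 0 or 1 of 3 erythroid and 2 or 3 of 7 genes of other tissues had a promoter peak in a library. Cpt1a itself kept a promoter peak in all 4 libraries, which does not check the deletion of its exons. In a bulk library, a stronger peak can come from more cells with an open site or from more cutting in each cell, and the data cannot tell these apart. An exact two-sided permutation of 2 libraries against 2 cannot give a p below 0.333, and no comparison of the genotypes could pass 0.05. No source used here says whether the libraries came from separate mice, and the p-values measure only the spread between libraries.

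Genes for DNA replication are switched on as a cell leaves G1, chiefly by E2F factors, and code for the MCM helicase that opens the double helix, the factors that load it, the polymerases with their sliding clamp, and the enzymes that supply nucleotides. Genes for mitosis are switched on later, in G2, through promoters that typically combine a cell cycle genes homology region (CHR), read by MuvB complexes, with CCAAT boxes bound by NF-Y. Most LT-HSCs in adult bone marrow rest outside the cycle and seldom divide.

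Upstream sequences show what letters sit under the peaks. RefSeq (GRCm38.p6, the assembly that mm10 names) listed a start for 38 of the 48 members, 21 of S phase and 17 of mitosis. For 12 of these, the 200 bases before the start are printed 5′ to 3′ on the gene's strand, ending at the base next to the start. Capitals mark letters of 3 kinds on either strand. E2F letters are TTCCCGC and its forms with other middle bases, namely TTCGCGC and also TTGGCGC. CHR letters are TTTGAA and the palindrome TTCGAA, and the third kind is CCAAT. Matches of E2F and CCAAT can overlap. The S phase promoters shown are those with the highest ranks, Mcm10 (chr2:5012792-5012991, minus strand) and Rrm1 (chr7:102441495-102441694, plus strand), the lowest ranks, E2f2 (chr4:136172074-136172273, plus strand) and Tyms (chr5:30073626-30073825, minus strand), the widest gap in favour of KO, E2f3 (chr13:29986064-29986263, minus strand), and the most E2F letters, Mcm6 (chr1:128359706-128359905, minus strand).
Mcm10: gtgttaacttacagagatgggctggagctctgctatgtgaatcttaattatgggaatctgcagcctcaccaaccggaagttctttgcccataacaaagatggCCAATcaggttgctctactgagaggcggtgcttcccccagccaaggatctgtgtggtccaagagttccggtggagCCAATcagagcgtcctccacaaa
Rrm1: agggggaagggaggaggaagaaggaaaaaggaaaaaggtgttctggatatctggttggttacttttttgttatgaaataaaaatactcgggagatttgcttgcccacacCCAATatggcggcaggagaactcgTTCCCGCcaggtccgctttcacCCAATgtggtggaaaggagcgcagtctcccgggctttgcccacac
E2f2: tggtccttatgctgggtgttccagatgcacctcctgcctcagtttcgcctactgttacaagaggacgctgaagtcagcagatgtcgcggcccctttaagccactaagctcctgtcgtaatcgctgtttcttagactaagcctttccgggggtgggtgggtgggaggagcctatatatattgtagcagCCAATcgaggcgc
Tyms: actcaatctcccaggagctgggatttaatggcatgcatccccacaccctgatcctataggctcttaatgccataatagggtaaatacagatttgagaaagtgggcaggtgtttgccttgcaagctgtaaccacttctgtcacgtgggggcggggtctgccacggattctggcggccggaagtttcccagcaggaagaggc
E2f3: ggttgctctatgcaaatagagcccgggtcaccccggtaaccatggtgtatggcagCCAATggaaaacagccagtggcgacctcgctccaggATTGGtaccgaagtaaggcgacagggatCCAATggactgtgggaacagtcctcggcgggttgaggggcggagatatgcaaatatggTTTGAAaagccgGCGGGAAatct
Mcm6: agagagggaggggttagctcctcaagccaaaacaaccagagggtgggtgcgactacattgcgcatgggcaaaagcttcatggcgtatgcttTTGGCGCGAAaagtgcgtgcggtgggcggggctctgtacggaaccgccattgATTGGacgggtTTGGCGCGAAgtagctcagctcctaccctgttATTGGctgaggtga
Mcm6, a subunit of the MCM helicase, held 4 E2F matches in 2 overlapping pairs, which read as 1 run of 10 letters in each pair, beginning at positions -109 and -46. Rrm1, the large subunit of ribonucleotide reductase, held 1 E2F match at -67 between CCAAT boxes at -91 and -45. Mcm10, which helps start the helicase, had 2 CCAAT boxes and no E2F letters in this stretch, and Tyms, thymidylate synthase, had none of the letters searched. The mitosis promoters shown are the highest in rank, Ube2c (chr2:164769729-164769928, plus strand) and Ccnb1 (chr13:100786487-100786686, minus strand), the lowest, Plk1 (chr7:122159235-122159434, plus strand) and Kif23 (chr9:61946800-61946999, minus strand), the widest gap in favour of control, Bub1b (chr2:118598011-118598210, plus strand), and the most CHR letters, Top2a (chr11:99024190-99024389, minus strand).
Ube2c: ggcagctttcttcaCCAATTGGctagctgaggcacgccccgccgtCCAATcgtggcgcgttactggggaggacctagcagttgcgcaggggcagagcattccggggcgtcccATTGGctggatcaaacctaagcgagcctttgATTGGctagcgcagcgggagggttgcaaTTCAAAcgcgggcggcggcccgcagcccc
Ccnb1: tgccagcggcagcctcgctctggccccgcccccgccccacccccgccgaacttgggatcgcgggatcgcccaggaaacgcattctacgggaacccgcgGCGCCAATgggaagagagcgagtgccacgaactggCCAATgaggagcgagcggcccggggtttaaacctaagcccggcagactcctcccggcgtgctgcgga
Plk1: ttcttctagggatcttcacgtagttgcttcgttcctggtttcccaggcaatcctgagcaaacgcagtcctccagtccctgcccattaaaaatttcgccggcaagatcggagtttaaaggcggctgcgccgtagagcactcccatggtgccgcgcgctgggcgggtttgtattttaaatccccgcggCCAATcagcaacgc
Kif23: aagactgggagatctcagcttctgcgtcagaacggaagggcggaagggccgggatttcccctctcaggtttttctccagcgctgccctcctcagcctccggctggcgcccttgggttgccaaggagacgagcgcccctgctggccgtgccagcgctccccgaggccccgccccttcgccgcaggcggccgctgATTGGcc
Bub1b: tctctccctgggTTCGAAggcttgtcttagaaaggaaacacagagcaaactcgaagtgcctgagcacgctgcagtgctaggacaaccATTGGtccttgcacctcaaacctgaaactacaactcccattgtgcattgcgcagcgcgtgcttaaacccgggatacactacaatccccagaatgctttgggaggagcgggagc
Top2a: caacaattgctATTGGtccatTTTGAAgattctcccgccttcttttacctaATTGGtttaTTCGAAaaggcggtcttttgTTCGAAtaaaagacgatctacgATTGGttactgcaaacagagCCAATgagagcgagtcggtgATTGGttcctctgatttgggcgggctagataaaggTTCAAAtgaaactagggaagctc
Top2a, the topoisomerase that untangles sister chromosomes, held 4 CHR matches and 5 CCAAT boxes in these 200 bases. Ube2c, the E2 enzyme of the anaphase-promoting complex, held 1 CHR match at -29 and 5 CCAAT boxes, of which 2 form the palindrome at its 5′ end. In Ccnb1, cyclin B1, the single E2F match at -102 shares letters with the CCAAT box at -99.

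Over the 300-base windows (250 before the start and 50 after it), S phase and mitosis promoters carried different letters. E2F letters were in 14 of 21 S phase windows (66.7%) and 3 of 17 mitosis windows (17.6%), against 15.4% of the 11061 genes with a promoter peak in all 4 libraries. CHR letters were in 14 of 17 mitosis windows (82.4%) and 3 of 21 S phase windows (14.3%), against 12.7%. Over all 17274 coding genes with a listed start, E2F letters were in 10.8% of windows, CHR letters in 17.4% and CCAAT in 39.4%. CCAAT was common to both phases, in 15 of 21 S phase windows (71.4%) and 16 of 17 mitosis windows (94.1%), against 37.8% of the genes with a peak. A CHR match together with CCAAT was in 14 of 17 mitosis windows and 3 of 21 S phase windows, against 5.32%. Other genes of the same processes, taken from a list and not from their values, held E2F letters in 57.1% of 28 S phase windows and 14.7% of 34 mitosis windows, and CHR letters in 21.4% and 70.6%. The members that held letters of the opposite phase were few. Mcm2, Mcm7 and E2f3 of S phase held CHR letters, and Cdk1, Mki67 and Ccnb1 of mitosis held E2F letters. Mcm7, E2f3, Cdk1 and Mki67 also held the letters of their own phase. Birc5 (survivin) and Cenpe, a centromere kinesin, were the mitosis members with neither E2F nor CHR letters. In S phase, 6 of 21 members had neither, namely Ccne1, E2f1, Mcm10, Pcna, Rrm2 and Tyms. The strongest summits of E2f1 and Cdc6 lay before their windows in every library (positions below), so the letters under those summits were not read. A match is a description of letters and not a shown binding site.

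**Figure D1:**
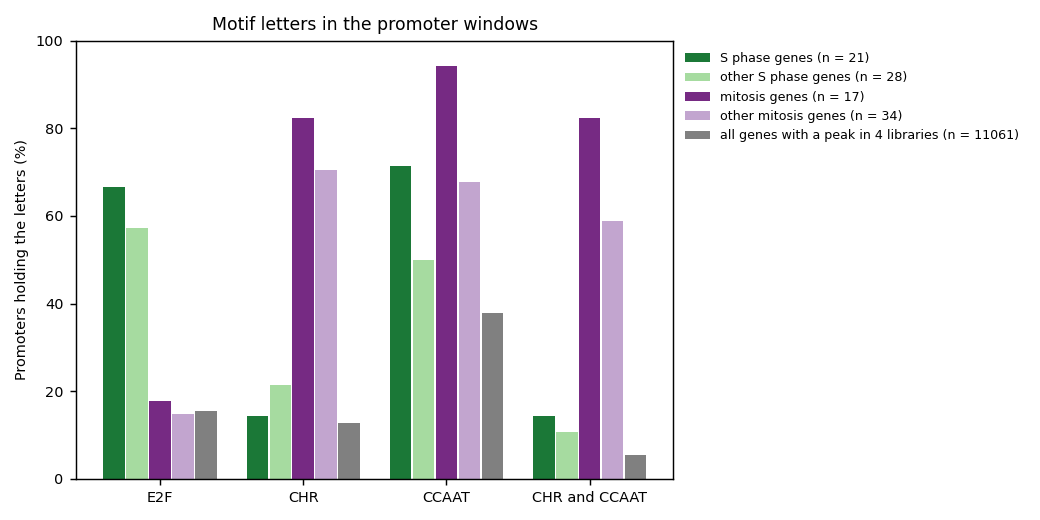
Share of promoter windows (percent, y axis) that hold E2F, CHR or CCAAT letters, or CHR and CCAAT together, in 5 gene groups (bars). The S phase bars stand high for E2F (66.7%) and the mitosis bars for CHR (82.4%), each against a lower share among all genes with a peak in 4 libraries.

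The promoters of all 38 members with a listed start had a peak in all 4 libraries, whereas 11061 of the 17274 coding genes did. In a given library, 66.2% to 67.0% of the coding genes had one. To compare strength, each peak's fold over background was ranked within its own library, and the percentile is the share of that library's intervals with a lower fold. The median percentile of the members was 98.6 and 98.1 in the control pair and 98.8 and 98.3 in the KO pair. Genes with a promoter peak in all 4 libraries had medians of 95.2, 94.4, 95.7 and 95.3. Between 31 and 35 of the 38 members lay in the strongest 5% of a library's intervals, against 46.8% to 54.5% of those genes. Of the 10 members without a listed start, each had a region in all 4 libraries at or near one end of the gene, at most 616 bp away, and their percentiles ran from 82.4 (Aurkb, a kinase of the chromosomal passenger complex, in control 2) to 99.98 (Cdc25c, a phosphatase that activates Cdk1, in control 2). The other 8 were Mcm4, Gins1, Gins2, Pole, Ccne2, Ccna2, Tpx2 and Foxm1.

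Among S phase genes with a listed start, the strongest promoters were spread over several steps of replication. Mcm10 stood at 99.92 and 99.52 in the control pair and 99.80 and 99.99 in the KO pair. Rrm1 stood at 99.65 and 99.45 against 99.89 and 99.92, so that both KO values lay above both control values. Rfc1, the large subunit of the clamp loader, stood at 99.84, 99.36, 99.58 and 99.83 (controls first, here and in the following lists), and its genotypes overlapped. Cdc6, which loads the helicase onto origins, stood at 99.67, 99.46, 99.75 and 99.38, and its genotypes overlapped too. The MCM subunits split into a strong group and a weaker one. Mcm3, Mcm5 and Mcm6 stood between 97.97 and 99.60 in every library. Mcm2 stood at 92.52, 93.09, 95.42 and 93.84, and Mcm7 stood at 93.06, 94.64, 95.22 and 93.46, in a region it shares with the start of the neighbouring gene Ap4m1. The 2 lowest S phase members were E2f2, at 83.57, 85.96, 85.29 and 79.47, and Tyms, at 86.64, 92.05, 90.21 and 89.63. Both were open in every library, with genotypes that overlapped.

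Among mitosis genes with a listed start, the range was narrower, from 94.84 to 99.93 over all libraries. Ube2c stood at 99.89, 99.49, 99.86 and 99.93 and Ccnb1 at 99.52, 99.52, 99.76 and 99.14, and in both the genotypes overlapped. Aurka, the centrosomal Aurora kinase, stood at 99.77, 99.63, 99.46 and 98.36 in a region that also holds the start of Cstf1. Ccnb2, cyclin B2, stood at 99.68, 99.81 and 99.75 in the first 3 libraries and at 97.91 in KO 2, so that 1 KO library stood apart from the rest. The lowest mitosis member with a listed start was Plk1, the Polo-like kinase, at 95.38, 95.33, 95.02 and 96.98. Of those without one, Aurkb was lower, at 87.37, 82.43, 87.50 and 90.05, and Foxm1 stood at 95.28, 91.40, 96.82 and 94.01. Cdc25c, also without one, stood above Ube2c in every library, at 99.96, 99.98, 99.95 and 99.98. Kif23, a kinesin of the dividing cell's midzone, stood at 96.13, 95.49, 96.46 and 97.64. Cdc25b, another phosphatase acting on Cdk1, stood at 98.05, 96.16, 98.09 and 97.58.

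**Figure D2:**
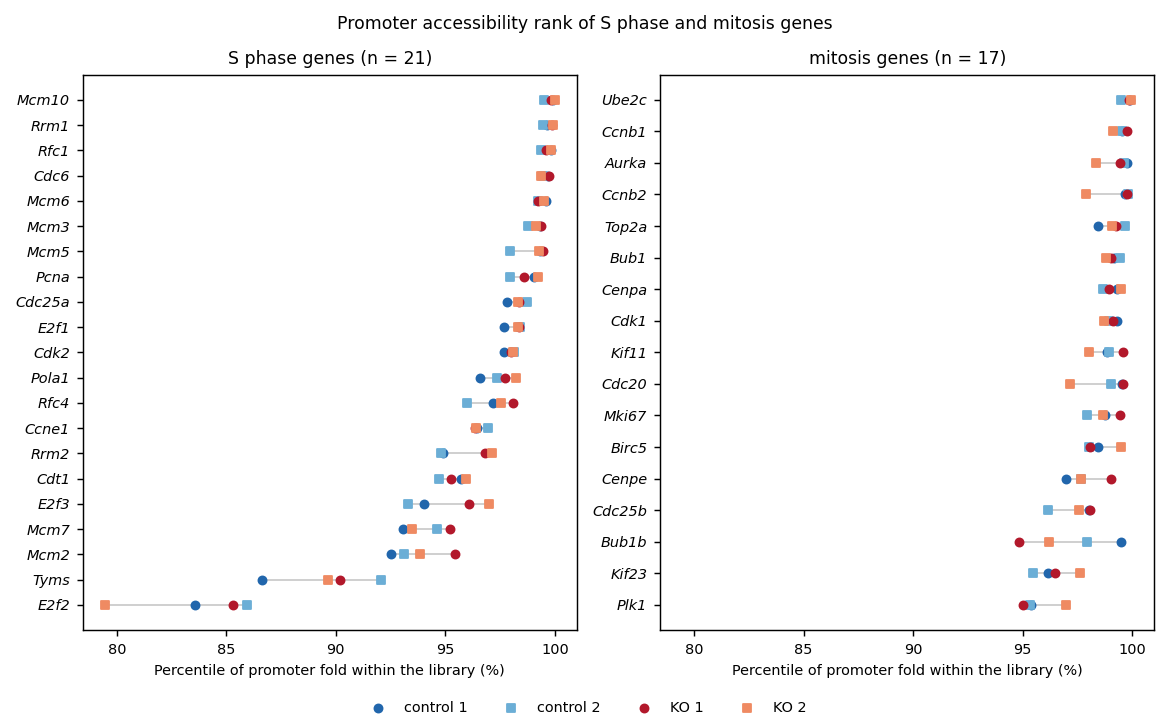
Percentile of the promoter fold within each library (x axis, percent of intervals with a lower fold) for the 38 members with a listed start (rows), with 1 point per library and a grey line over their range. Most members stand above 95 in every library, and E2f2 and Tyms lie farthest left.

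Mitosis promoters ranked above S phase promoters in each library by fold. The S phase medians were 97.7 and 97.9 in the control pair and 98.1 and 98.2 in the KO pair, and the mitosis medians were 99.2, 98.9, 99.1 and 98.4. The mitosis minus S phase differences were 1.5, 0.98, 1.06 and 0.15 percentile points, a mean of 0.92 ± 0.57 (SD, n = 4), positive in 4 of 4 libraries (exact sign-change permutation test, two-sided p = 0.125, the smallest that 4 libraries allow). The difference was smallest in KO 2. By −log10 p in place of the fold it shrank to 0.08, 0.24, 0.17 and −0.18, a mean of 0.079, so that the order depended on the measure ranked. In ranks among the 12076 genes with a promoter peak in any library, which was added once the values were known, the mitosis medians were 90.3, 88.5, 88.3 and 80.9 against 74.1, 78.9, 75.5 and 79.2 for S phase. Other mitosis genes also ranked above other S phase genes by fold, by 1.38, 2.19, 1.11 and 1.87 points (exact sign-change permutation test, p = 0.125).

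The genotypes did not separate over the members as a group. The median over the 38 promoters was 0.18 points higher in KO (exact permutation test, two-sided p = 0.667), which was smaller than the spread of 0.38 (SD) between the controls. The S phase median was 0.34 points higher in KO (p = 0.333 by the same exact test) and the mitosis median 0.30 points lower (p = 0.667, exact), while the median of all genes with a peak in 4 libraries was 0.72 points higher (p = 0.333, exact). Dropping summits whose −log10 q was under 5 turned the members' difference to −0.60. Ranked among gene promoters, an alternative added once values were known, the mitosis median differed by −4.82 points (KO minus control), with both KO values (88.3 and 80.9) below both control values (90.3 and 88.5, p = 0.333, exact). Both KO values lay above both control values in 8 of 38 members, 6 of S phase and 2 of mitosis. Of the 12076 genes with a promoter peak in any library, 27.0% did so. Both KO values lay below both control values in 4 of 38 members, 1 of S phase and 3 of mitosis, against 9.35%. These shares, 21.1% and 10.5%, were near the background. At a −log10 q cutoff of 5 the balance turned, with 4 members higher and 6 lower. In the list of other genes, without that cutoff, 7 of 28 S phase genes were higher in KO (25%) and 2 lower (7.14%). Of 34 mitosis genes in it, 3 were higher (8.82%) and 8 lower (23.5%), against the same 27.0% and 9.35%. Among the 7 S phase genes that were higher, the gap between the nearest control and KO values ran from 0.035 points (Dbf4) to 1.52 (Uhrf1). Among the 8 mitosis genes that were lower it ran from −0.0029 points (Nusap1) to −1.35 (Melk).

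Among members with a listed start, those with the widest gaps between genotypes had opposite directions. E2f3, an activating E2F factor, stood at 94.00 and 93.32 in the control pair and 96.08 and 97.01 in the KO pair, with folds of 13.3 and 13.1 against 15.03 and 15.68. It had 2 listed starts with 2 regions at them, and these values are of the region with the higher mean percentile only. Rrm2, the small subunit of ribonucleotide reductase, stood at 94.88 and 94.80 against 96.81 and 97.15. The controls lay close together in both genes, and each KO value was above them by more than the controls differed. Mcm2 (values above) and Rfc4, a small subunit of the clamp loader, at 97.18 and 95.98 against 98.08 and 97.56, had smaller gaps, and their folds overlapped. The fold of Mcm2 was 12.1 and 13.0 against 14.2 and 12.0, and that of Rfc4 17.2 and 15.7 against 18.4 and 16.6. Ranked among gene promoters, Mcm2 overlapped as well, at 43.0 and 48.5 against 52.6 and 47.0. In the other direction, Bub1b, the checkpoint kinase BubR1, stood at 99.47 and 97.92 in the control pair and 94.84 and 96.22 in the KO pair. Its fold was 22.7 and 18.4 against 13.5 and 14.6, a gap larger than the difference within the KO pair but smaller than that within the control pair. Bub1, its partner at kinetochores, stood at 99.18 and 99.44 against 99.05 and 98.78. Aurka (values above) and Ccne1, cyclin E1, at 96.44 and 96.96 against 96.35 and 96.40, completed the 4, and the gap of Ccne1 turned with lists of equal length. An exact permutation of the libraries at a single promoter cannot give a p below 0.333 either. Apart from Ccne1, these genes kept their direction at a −log10 q cutoff of 5, with lists of equal length, with the 100000 strongest summits, by −log10 p and with each library left out, but not their size: the KO minus control difference of E2f3, 2.88 points, was 0.51 by −log10 p and 8.44 with the 100000 strongest summits, that of Rrm2, 2.14, was 0.80 and 6.31, and that of Bub1b, −3.17, was −2.06 and −9.84.

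Promoter peaks were narrower in KO, at members as at other genes. The median width at the 38 promoters was 919.5 and 936.5 bp in the control pair and 840 and 870 bp in the KO pair, a difference of −73 bp that exceeded the SD within either genotype (12.0 and 21.2 bp, exact permutation test, two-sided p = 0.333). All genes with a peak in 4 libraries differed by −88.5 bp, with 940 and 930 bp against 833 and 860 bp. Both KO widths lay below both control widths in 22 of 38 members (57.9%) and above them in 2 of 38. Among the 12076 genes with a promoter peak in any library, the shares were 39.7% and 4.65%. Some of those genes lacked a peak in a library, unlike the members. The share narrower in KO was 61.9% of the S phase members but 25% of the 28 other S phase genes, and 52.9% of the mitosis members and 47.1% of the 34 other mitosis genes. Intervals were shorter in the KO lists across the genome (medians above), and the part this played at the members was not tested. Mitosis promoters were 1079 and 1117 bp wide in the control pair and 912 and 902 bp in the KO pair, and S phase promoters 852 and 887 bp against 790 and 784 bp. Mitosis exceeded S phase by 227, 230, 122 and 118 bp (4 of 4 libraries, exact sign-change permutation test, p = 0.125), and the excess was smaller in both KO libraries than in both controls (exact permutation test, p = 0.333).

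**Figure D3:**
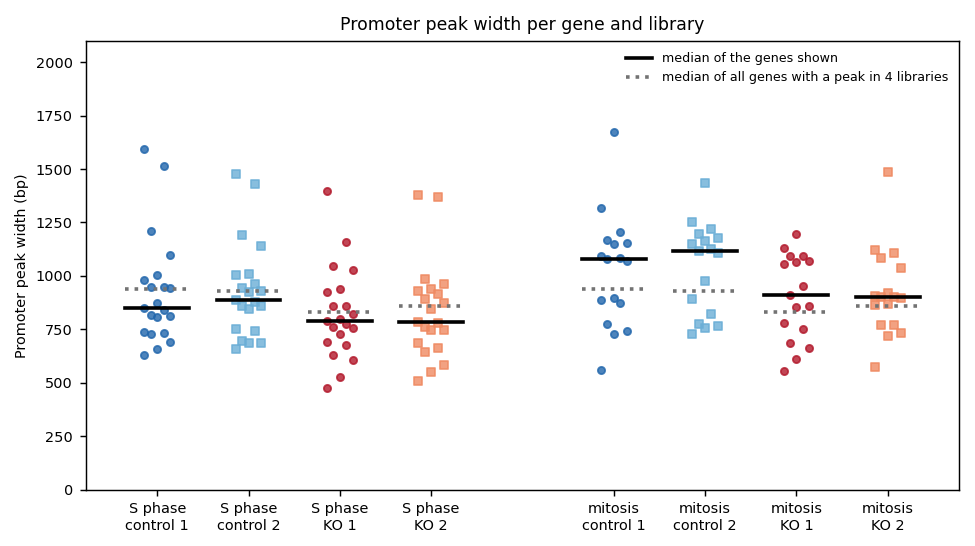
Width of the promoter peak in bp (y axis) for each S phase gene (left) and mitosis gene (right) in the 4 libraries (x axis). Black bars are medians of the genes shown and dotted bars the medians of all genes with a peak in 4 libraries, and both sit lower in the KO pair.

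The 3 widest gaps in width between the genotypes were in mitosis genes. Cenpe, which moves chromosomes to the spindle equator, measured 1071 and 1196 bp in the control pair and 663 and 772 bp in the KO pair. Ccnb1 measured 1156 and 1219 bp against 856 and 866 bp, and Kif23 1147 and 1148 bp against 955 and 770 bp. Within S phase, Mcm10 measured 816 and 860 bp against 630 and 585 bp, and Cdc6 729 and 877 bp against 605 and 549 bp. In these genes the width separated the genotypes while the percentile of all but Cenpe and Kif23 did not. The 2 members that were wider in both KO libraries were E2f3, at 735 and 751 bp against 775 and 784 bp, and Bub1b, at 744 and 764 bp against 912 and 919 bp. E2f3 also had the widest percentile gap among members higher in KO, and Bub1b the widest among members lower in KO.

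At most members the strongest summit of the promoter peak lay at nearly the same place in every library. Over the 4 libraries its position ranged by a median of 13 bp at members and 29 bp at all genes with a peak in 4 libraries, and it stayed within 20 bp at 26 of 38 members (68.4%) against 42.4% of those genes. At 7 members the range was 92 bp or more, namely Aurka (284 bp), Ccne1 (166 bp), Mcm7 (135 bp), Rfc4 (119 bp), Cenpa (117 bp), Kif23 (112 bp) and Cenpe (92 bp). The summit lay before the listed start in 34 or 35 of the 38 members per library, against 66.5% to 67.6%. The exceptions in every library were Tyms, at 54, 53, 28 and 53 bp after the start, Rrm1, at 19, 19, 10 and 27 bp, and Mcm2, at 15, 11, 18 and 12 bp. Mki67, the proliferation marker Ki-67, peaked at -169, -170, -167 and -169 bp, Cdk1 at -83, -84, -82 and -82 bp, and Rfc1 at -84, -85, -85 and -83 bp. E2f1 (-543 to -562 bp) and Cdc6 (-421 to -426 bp) had their summits farthest from the listed start, and each stayed within 20 bp over the 4 libraries. In both, the gene itself reaches farther upstream than that start. Its 5′ end is at 154569892 against a start at 154569426 in E2f1 (minus strand), and at 98907709 against 98908151 in Cdc6. Both summits lay nearer to the 5′ end of the gene than to the listed start.

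**Figure D4:**
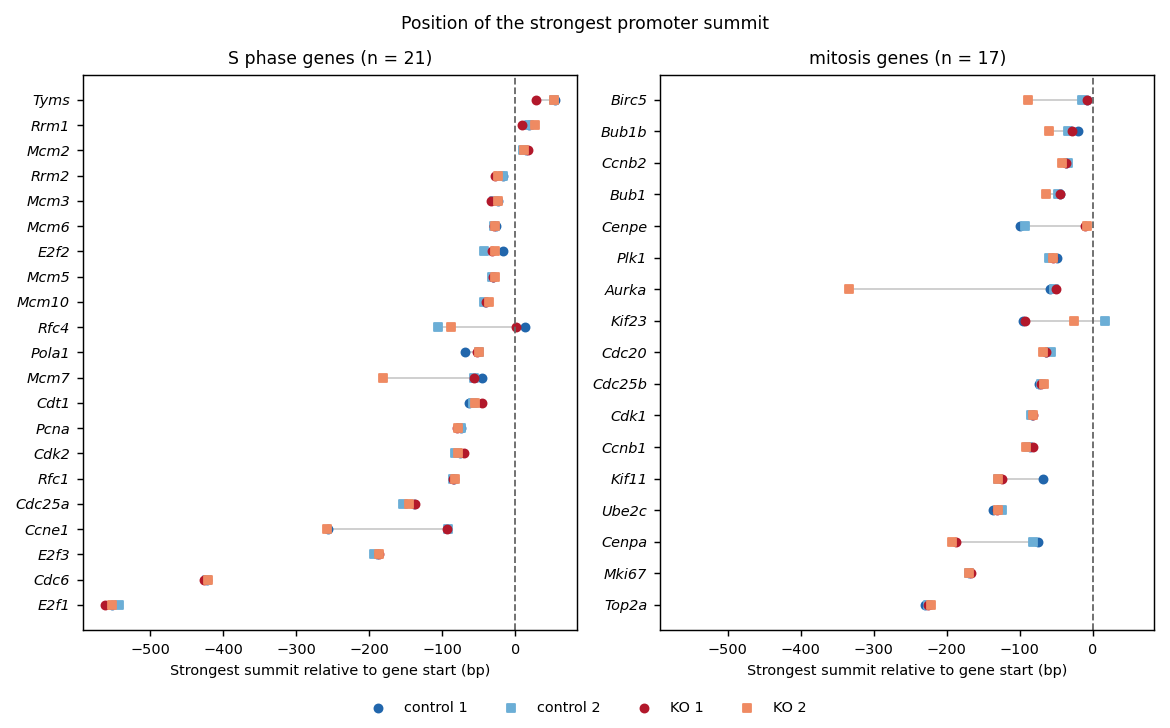
Position of the strongest summit relative to the gene start in bp (x axis, negative before the start, dashed line at the start) for the 38 members (rows), with 1 point per library. At 26 members the 4 points lie within 20 bp, and Cenpe and Cenpa are the rows where the control and KO points form separate pairs.

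The summits lay close to CCAAT boxes. Among members with a summit inside the window and at least 1 CCAAT match, the nearest match was a median of 19.5 bp from the summit in 15 S phase genes and 18.75 bp in 16 mitosis genes, against 32 bp in 3441 genes with a peak. A match lay within 50 bp of the summit in 12 of 15 and 13 of 16 of these members (80% and 81.2%), against 62.1%. E2F letters were farther away, a median of 76.5 bp in 13 S phase genes against 71 bp in 1344 genes. They lay within 50 bp in 2 of these 13 (15.4%), against 34.8%. CHR letters were a median of 68.5 bp from the summit in 14 mitosis genes against 106.5 bp in 1074 genes, and within 50 bp in 4 of the 14 (28.6%), against 19.2%. Windows that hold several matches have a nearer one, and 2 or more CCAAT boxes were in 50.0% of member windows against 14.8% of genes with a peak.

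At 2 of 38 members (5.26%) the strongest summit differed by at least 50 bp between the genotypes and stayed within 20 bp inside each, against 2.0% of all genes with a peak in 4 libraries. This criterion was chosen after the positions were seen. At Cenpe the summit was at -100 and -92 bp in the control pair and -11 and -8 bp in the KO pair. At Cenpa, the centromeric histone, it was at -75 and -82 bp against -187 and -192 bp. Both summits were present in every library, however, with similar folds. At Cenpe the upstream and downstream summits had folds of 16.9 and 16.1 in control 1, 18.0 and 17.1 in control 2, 20.5 and 20.8 in KO 1 and 14.1 and 16.8 in KO 2. At Cenpa the upstream summit had folds of 20.7 and 19.6 in the control pair and 20.5 and 21.3 in the KO pair, beside 21.9, 19.8, 20.3 and 18.1 for the other. The change of position was thus an exchange of rank between a pair of summits, as in Aurka, whose summit at -334 bp led in KO 2 with a fold of 18.0 against 16.4 at -54 bp.

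Beyond the listed starts, the member genes held 280 further regions, of which 59 were in all 4 libraries and 179 in 1 library. All regions of the 10 members without a listed start count here, among them those at or near an end of the gene. With the starts, 97 of 318 regions (30.5%) were in all 4 libraries, against 25.1% of regions at coding genes. A gene held a median of 5 regions. Rfc1 and E2f3 held 25 each, over gene lengths of 76766 and 79490 bp, whereas Pola1, the catalytic subunit of DNA polymerase alpha on the X chromosome, held 4 over 327622 bp. In 8 genes, among them Pcna, the sliding clamp, Cdt1, Ccnb1, Birc5 and Cdc20, there was 1 region, and it was in all 4 libraries. E2f3 held 12 and 7 regions in the control pair and 12 and 12 in the KO pair, and Rfc1 held 14, 9, 12 and 13. Both genes had their lowest count in control 2, the library with the fewest member regions (149, against 166, 173 and 172).

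Regions that both libraries of 1 genotype held and both of the opposite genotype lacked were few and weak. Of the 318 regions, 9 were only in control (2.83%, against 2.47% of the 203668 regions at coding genes) and 4 were only in KO (1.26%, against 1.36%). None was a promoter region used above, and none could be, because those of all 38 members with a listed start were in all 4 libraries. Cdc25c and Tpx2 had no listed start. The control regions were in Cdc25c, Cenpa, E2f2, E2f3, Rfc1, Rfc4, Rrm2 and, with 2 regions, Kif23, and the KO regions were in Pola1, Rfc1, Tpx2 and Tyms. The strongest control region was in Kif23 (chr9:61927462-61927681), with folds of 3.91 and 3.04 and percentiles of 62.6 and 37.7. The strongest KO region was in Tyms (chr5:30072406-30072663), with folds of 3.32 and 3.89 and percentiles of 53.1 and 62.3. All 13 regions lay below the 63rd percentile, far under the promoters of the same genes. The counts fell to 1 and 1 when summits of −log10 q under 5 were dropped, and to 2 and 2 with the 100000 strongest summits of each library.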

How the data were processed

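ATAC-Seq was measured in 2 control and 2 KO libraries. The submitters' processing notes name Bowtie2, MACS2 and mm10, without versions. The authors deposited 1 peak list per library, with a row per summit: a fold (the ratio of signal at the summit to background), and −log10 p and −log10 q values as deposited by the authors. Read depth is unknown, so no interval or count test was possible, and DiffBind with edgeR, as in the study, could not be run.

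Rows on the autosomes and X were joined into intervals per library, and intervals of the 4 libraries were merged at 1 bp of overlap in Python 3.11.15 (pandas 2.3.3, numpy 2.4.6). A region belonged to a gene when it overlapped the gene or 1000 bp on either side. A promoter was the merged region overlapping 250 bp before to 50 bp after a RefSeq start, with the highest mean percentile where there were several. Widths count the bp covered by a library's intervals. Genotypes were compared over libraries by exact permutation of per-library medians, and phases by exact sign changes, with the scripts tested on simulated data. Figures were drawn with matplotlib 3.10.9.

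Named with values were the 4 highest and 4 lowest promoters of each phase, the 4 widest gaps between genotypes in each direction and the members with regions in 1 genotype only. Other members named were chosen after their values were seen. The members, the lists of other genes, the markers and the motif letters were chosen with earlier results of these data known. The promoter table held no start for 10 members, whose promoters were not analysed by window here.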

Additional observations from a re-analysis of the deposited data

How the results depend on the processing

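Peaks at all 38 member promoters, the sign of the width differences and the mean excess of mitosis over S phase kept their direction under every alternative run. Excess by percentile ran from 0.079 (ranked by −log10 p) to 10.1 (ranked among gene promoters). The KO minus control median percentile, 0.18, was −0.60 at a −log10 q cutoff of 5, −0.20 in ranks among gene promoters, and −0.092 to 0.45 with a library left out. It was −0.092 without control 2 and −0.081 without KO 1. The count of members higher in KO, 8, was 4 at a −log10 q cutoff of 5 and 14 to 20 with a library left out. The count lower in KO, 4, was 6 at that cutoff, 2 by −log10 p and 5 to 11 with a library left out. Leaving 1 library in a group raises both counts by construction. Regions only in control, 9, numbered 1 at a −log10 q cutoff of 5, 5 with lists of equal length, 2 with the 100000 strongest summits and 10 to 54 with a library left out. Regions only in KO, 4, numbered 1, 4 and 2 under these lists, 1 when a share of 0.5 of the region had to be covered, and 5 to 62 with a library left out. Single genes were run for the 8 with the widest gaps only, and of these Ccne1 reversed, to 0.030 with lists of equal length. Without KO 2 the difference of Aurka, −0.79, was −0.24, and without KO 1 it was −1.34. Without KO 1 that of Mcm2, 1.82, was 1.03. Without control 2 that of Rfc4, 1.24, was 0.64 and that of Ccne1, −0.32, was −0.061, and without control 1 the latter was −0.59. At the −log10 q cutoff of 5, Bub1b was at −10.9, Aurka at −2.85, Bub1 at −1.69 and Ccne1 at −3.05. Ranked by −log10 p, Mcm2 was at 0.77 and Rfc4 at 0.87, and with the 100000 strongest summits at 5.49 and 3.59. The causes were not tested beyond these constructions. With the replicate number as a block, the members' percentile difference of 0.18 and width difference of −73 bp each had an exact sign-change p of 0.5, the smallest that 2 pairs allow. Differences between replicates 1 and 2 correlated by 0.038 between the genotypes over 11061 promoters (−0.395 over the 38 members), so the pairing rests on the number alone. Moving Ccna2 to S phase gave no value because it had no listed start. Read depth, which sets which weak peaks are found, is unknown.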
